A study of Mus musculus with 8 samples.

Results

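Interferon-stimulated genes are switched on when interferons bind their receptors. The list studied here holds 34 of them, chosen by gene symbol and found on the arrays by probes that carry that symbol. Of the 34, 33 had such a probe (43 probes in all), among 21913 genes with a named probe, and 20 were bright enough to test, among 13728 genes tested. No probe bore the name Ifi27.

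The cells were satellite cells, the stem cells that rebuild skeletal muscle, from C57BL/6 mice labelled as male and aged 3 months. The authors' column names mark every sample as WT (wild type), and no other allele is named. The injured group was 4 samples of cells taken 3 days after cardiotoxin, a venom toxin that kills muscle fibres. The basal group was 4 samples from muscle without injury. Both were sorted by flow cytometry for integrin alpha 7 and against CD31, CD45, CD11b and Sca1, and each sample was hybridised to a single 1-colour Agilent array, so the number of arrays limits the precision. The labels call the samples biological replicates and name no pooling.

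Type I interferons, such as interferon beta and the interferon alphas, bind the receptor pair Ifnar1 and Ifnar2, and the kinases Jak1 and Tyk2 then phosphorylate Stat2. Stat2 joins Irf9 in a complex that binds the interferon-stimulated response element (ISRE) in promoters. Interferon gamma uses Ifngr1 and Ifngr2 and acts through another element, GAS. The induced proteins sense viral RNA, degrade or block it, tag proteins with the ubiquitin-like Isg15, or feed back on the pathway.

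Promoter windows of 300 bases (250 before the start site and 50 from it on) were given for 23 of the 34 members by RefSeq, on build GRCm38.p6. They were searched on both strands for the ISRE core GAAANNGAAA, for the longer form GAAANNGAAACT, which contains the core, and for the GAS motif TTCNNNGAA. Of the 23 members, 13 (56.5%) held the ISRE core, against 3.99% of 27025 genes with a window. The longer form was found in 7 members (30.4%), against 0.303% of all genes, and GAS in 6 members (26.1%), against 9.55%. The 4 windows printed next show the element in a gene that was lower (Gbp2), one of the Ifit family (Ifit3), one that rose (Oas1a) and one that was not called (Isg15). Capitals mark the bases covered by an ISRE core on either strand, and each window reads 5′ to 3′ along its gene.
Gbp2, chr3:142620413-142620712, plus strand: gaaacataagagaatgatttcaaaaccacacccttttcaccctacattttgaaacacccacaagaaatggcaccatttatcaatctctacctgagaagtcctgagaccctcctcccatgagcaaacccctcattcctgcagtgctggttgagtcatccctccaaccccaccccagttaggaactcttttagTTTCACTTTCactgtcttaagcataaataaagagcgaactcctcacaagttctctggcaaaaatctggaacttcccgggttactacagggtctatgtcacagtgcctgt
Ifit3, chr19:34583279-34583578, plus strand: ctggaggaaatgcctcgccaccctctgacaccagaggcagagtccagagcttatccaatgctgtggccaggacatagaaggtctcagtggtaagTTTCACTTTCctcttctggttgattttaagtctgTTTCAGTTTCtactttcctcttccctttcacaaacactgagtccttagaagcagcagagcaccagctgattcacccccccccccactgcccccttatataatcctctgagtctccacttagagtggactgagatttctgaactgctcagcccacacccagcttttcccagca
Oas1a, chr5:120907476-120907775, minus strand: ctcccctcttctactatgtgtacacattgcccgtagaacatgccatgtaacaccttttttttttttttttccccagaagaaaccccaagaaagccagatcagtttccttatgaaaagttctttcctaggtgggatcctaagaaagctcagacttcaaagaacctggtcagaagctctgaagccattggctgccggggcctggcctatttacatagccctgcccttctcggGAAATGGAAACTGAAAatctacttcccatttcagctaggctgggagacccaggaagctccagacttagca
Isg15, chr4:156200769-156201068, minus strand: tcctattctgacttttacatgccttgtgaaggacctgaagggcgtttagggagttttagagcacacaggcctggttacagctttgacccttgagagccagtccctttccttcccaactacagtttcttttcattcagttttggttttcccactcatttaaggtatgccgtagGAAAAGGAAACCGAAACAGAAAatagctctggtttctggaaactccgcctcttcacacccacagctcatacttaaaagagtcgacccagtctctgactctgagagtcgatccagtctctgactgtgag
Isg15 held 3 overlapping cores that began 78, 72 and 66 bases before the start site, and Oas1a 2 overlapping ones close to it. Among tested members with a window, the core was present in 5 of 11 that were called lower, in both that were called higher and in all 3 that were not called. Of the lower ones, Gbp2, Ifit3, Stat2, Ifih1 and Ddx58 held it, and Xaf1, Isg20, Cmpk2, Parp12, Ifi35 and Trim25 did not within this window. A match of letters is a description of the window only.

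Levels below are the log2 processed signal minus the 75th percentile of the array, and they are compared between arrays for 1 probe, never between probes. Each gene is read from its brightest probe. Differences are injured minus basal with moderated standard errors (SE, n = 4 arrays per group), and adjusted p-values are limma's with Benjamini-Hochberg adjustment over the 13728 genes. In sorted populations, fewer cells of a type and less RNA per cell cannot be told apart.

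After injury, most of the interferon-stimulated genes that could be read in both groups had lower signal. Of the 14 members whose probe was above background on 3 or more arrays of both groups, 10 were lower, 1 was higher (Rsad2) and 3 were not called (Isg15, Bst2 and Eif2ak2). Among 11724 genes read in both groups in the same way, 22.3% were called lower and 35.8% higher. The median difference of the 14 was -0.61, and that of those 11724 genes was 0.18. The other 6 tested members reached the limit of detection in 1 group only, so a difference was built into their selection. Of these, Ifit3, Ifih1, Gbp2, Parp12 and Xaf1 were lower and Oas1a was higher.

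Over the 20 tested members, 15 were lower and 2 higher, with a median of -1.10, beside 24.7% lower, 35.4% higher and a median of 0.17 over all genes tested. The difference was -1 or less for 10 of the 15, and for 1949 of the 3396 genes called lower among all 13728 tested. Among the 14 members read in both groups, 6 were called lower with a difference of -1 or less. That held for 1236 of the 11724 genes read in both groups. The 4 injured values lay below all basal values for 13 members and above them for 1, Oas1a. Over all genes tested, 23.2% did not overlap with injured lower and 33.9% with injured higher. In the authors' deposited table, another processing of the same arrays, 2 members were called lower, 1 higher, and the median was 0.22.

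**Figure D1:**
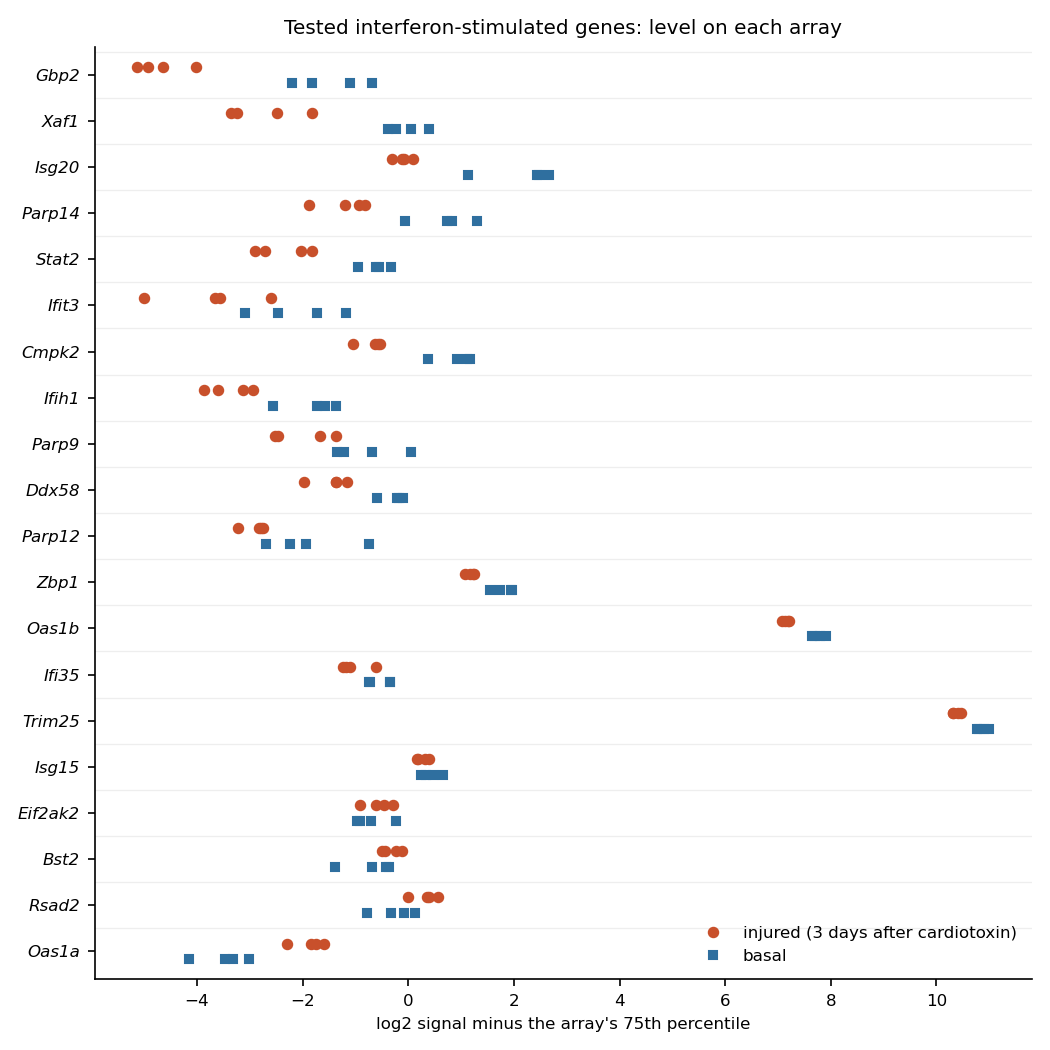
Level of each of the 20 tested members on the 4 injured arrays (circles) and the 4 basal arrays (squares), as log2 signal minus the array's 75th percentile. Gbp2, Xaf1 and Isg20 stand well apart with injured lower, Oas1a lies the other way, and the values of Isg15, Eif2ak2 and Bst2 overlap; levels of different genes come from different probes and are not comparable.

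Of the RIG-I-like helicases, which sense viral RNA, both that could be tested were lower. Ddx58, which encodes RIG-I and recognises RNA with a 5′ triphosphate, had levels of -1.37, -1.98, -1.36 and -1.16 on injured arrays, against -0.58, -0.10, -0.18 and -0.21 on basal arrays. All injured values lay below all basal ones, and Ddx58 fell by 1.20 ± 0.20 (adjusted p = 0.00108). The other Ddx58 probe was above background on no array. Ifih1, which encodes MDA5, the sensor of long double-stranded RNA, had -2.93, -3.87, -3.60 and -3.12 on injured arrays, against -1.37, -1.72, -1.58 and -2.57 on basal arrays. It was above background on 1 injured array and on all 4 basal arrays, and fell by 1.57 ± 0.30 (adjusted p = 0.00215). The other Ifih1 probe was above background on 1 basal array only and was not tested. Dhx58, the third member of this helicase family, was not above background on any array.

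Zbp1, a sensor of Z-form nucleic acid that can start necroptosis, had a narrower gap. Its levels were 1.18, 1.23, 1.06 and 1.25 on injured arrays, against 1.55, 1.94, 1.97 and 1.73 on basal arrays, and it fell by 0.62 ± 0.13 (adjusted p = 0.00399). Its other probe, which matches a different RefSeq transcript, differed by 0.30 with an adjusted p of 0.157 in the limma fit of every probe. The lower call for Zbp1 thus came from 1 of its 2 probes.

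Stat2, the subunit of the ISRE-binding complex that carries its activation domain, showed one of the clearest separations. It had -2.71, -2.90, -1.83 and -2.04 on injured arrays, against -0.61, -0.33, -0.56 and -0.94 on basal arrays. The groups did not overlap, and Stat2 fell by 1.76 ± 0.26 (adjusted p = 0.00058), or 3.38-fold lower. It was above background on 3 injured and all 4 basal arrays. With normexp, another background correction, the difference was -0.68 (quantile normalization) and -0.71 (75th percentile), so its size depends on signal near background. Irf9, the subunit that recognises the DNA element and is outside the list, had -1.54, -1.82, -1.54 and -1.49 on injured arrays, against -0.18, -0.49, -0.38 and -1.55 on basal arrays. It fell by 0.95 ± 0.28 (adjusted p = 0.0177). Its basal 4 value lay within the injured range, and it was not called against basal 3 and 4 alone (adjusted p = 0.114).

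"At least" values are used where a probe was not above background on any array of a group. There the dim group's mean takes, per array, the higher of the probe's own level and the lowest level of any probe above background on that array, which lay between -3.51 and -2.81.

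Among the genes that act on RNA, Isg20, a 3′ to 5′ exonuclease of single-stranded RNA, fell most of those read in both groups. Its levels were -0.12, 0.10, -0.07 and -0.32 on injured arrays, against 2.67, 2.45, 2.48 and 1.13 on basal arrays. Basal 4 stood below the other basal arrays but above every injured one. Isg20 fell by 2.28 ± 0.32 (adjusted p = 4.4e-04), and its other probe differed by -0.54 (adjusted p = 0.02 in the fit of every probe). Both probes were lower, by unequal amounts.

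Eif2ak2, which encodes PKR, the kinase that stops translation when it binds double-stranded RNA, was not called. Its levels were -0.61, -0.47, -0.29 and -0.91 on injured arrays, against -0.92, -0.97, -0.70 and -0.23 on basal arrays, and the groups overlapped. The difference was 0.14 ± 0.20, with a 95% interval of -0.33 to 0.60.

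The Ifit proteins bind viral RNA and block its translation. Ifit3 had -3.66, -3.57, -5.01 and -2.60 on injured arrays, against -1.19, -3.10, -1.72 and -2.46 on basal arrays. It was above background on no injured and on 3 basal arrays, and read at least 2.03-fold lower (adjusted p = 0.0338). The groups overlapped, and Ifit3 was not called against basal 3 and 4 alone (adjusted p = 0.0536). Leaving out injured 1, 2 or 3 or basal 1 or 3, each alone, also ended the call (adjusted p = 0.0617 to 0.0798), which held in 9 of 22 alternatives. Ifit1 was above background on basal 2 only, at -1.67, and Ifit2 on injured 1, at -2.40, and basal 1, at -1.59, so neither was tested.

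The 2′-5′ oligoadenylate synthetases make the second messenger that activates the ribonuclease RNase L. They form a multigene family of similar sequences on chromosome 5, so signal shared between copies is uncertain. Oas1a had -1.74, -2.30, -1.85 and -1.60 on injured arrays, against -3.02, -3.32, -4.16 and -3.47 on basal arrays. It was above background on all 4 injured and no basal arrays and was at least 2.40-fold higher (adjusted p = 8.5e-04). Its other probe was above background on no array. Oas2, Oas3 and Oasl1 were above background nowhere, and Oasl2 on basal 3 only, at -2.74.

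Oas1b and Trim25 need their probes shown, because the brightest probe of each shares sequence with the promoter windows of many genes. The 4 lines below give both probes of each gene as the array files hold them, with their positions on mm9. Capitals mark runs of 16 bases that occur in more than 10 of the 32851 RefSeq promoter windows.
Trim25, brightest probe, chr11:88874956-88881181: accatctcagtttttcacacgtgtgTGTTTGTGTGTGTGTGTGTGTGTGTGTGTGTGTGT
Trim25, other probe, chr11:88881521-88881580: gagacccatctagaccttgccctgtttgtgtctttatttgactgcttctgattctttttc
Oas1b, brightest probe, chr5:121274109-121274168: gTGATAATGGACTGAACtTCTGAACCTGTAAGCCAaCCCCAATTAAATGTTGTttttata
Oas1b, other probe, chr5:121273890-121273949: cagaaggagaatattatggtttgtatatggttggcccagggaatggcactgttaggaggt
The brightest Trim25 probe ends in a long stretch of alternating G and T and shared a 16-base run with 173 promoter windows, and that of Oas1b did so with 80. The other probe of each shared one with 0 windows, and no other member probe shared one with more than 3. The count covers exact runs in promoter windows only, so other repeats in a probe would be missed. Of the 55681 probes, 839 (1.51%) passed 10 windows.

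Trim25, a ubiquitin ligase that activates RIG-I, had 10.32, 10.41, 10.31 and 10.47 on injured arrays, against 11.00, 10.89, 10.81 and 10.76 on basal arrays. The groups did not overlap, and the brightest probe fell by 0.49 ± 0.11 (adjusted p = 0.00554). The other Trim25 probe differed by 0.14 with an adjusted p of 0.468 in the limma fit of every probe. The lower call for Trim25 rests on the repeat-bearing probe alone.

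Oas1b, an oligoadenylate synthetase family member known for flavivirus resistance in mice, had 7.08, 7.20, 7.13 and 7.18 on injured arrays, against 7.64, 7.70, 7.91 and 7.79 on basal arrays. It fell by 0.61 ± 0.11 (adjusted p = 0.00185). Its other probe differed by -0.78 (adjusted p = 0.0015 in the fit of every probe), so both Oas1b probes were lower. As a background for such probes, 413 tested genes had a brightest probe that passed 10 windows. Of those, 195 (47.2%) were called lower and 50 higher, with a median difference of -0.32. With these probes left out, an alternative chosen after seeing the data, 14 of the 20 members were lower and 2 higher.

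The guanylate-binding proteins are large GTPases that attack membranes around intracellular pathogens. Gbp2 had -5.13, -4.92, -4.02 and -4.65 on injured arrays, against -0.69, -1.82, -1.10 and -2.20 on basal arrays. It was above background on no injured and all basal arrays, the groups did not overlap, and it read at least 3.33-fold lower (adjusted p = 1.5e-04). Gbp3 was above background nowhere. The probe named Gbp6 was above background nowhere either; it lies on chromosome 3 in mm9, and its accession did not match the RefSeq gene of that name. The Mx GTPases, which trap viral nucleocapsids, were hardly detected: Mx1 nowhere, and Mx2 on basal 3 only, at -2.26.

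Xaf1, a partner of the apoptosis inhibitor XIAP, had -3.35, -3.25, -2.49 and -1.83 on injured arrays, against 0.39, -0.38, 0.04 and -0.24 on basal arrays. It was above background on 2 injured and all 4 basal arrays, and fell by 2.68 ± 0.35 (adjusted p = 2.8e-04). The other Xaf1 probe was above background on no array of either group, so the call came from 1 probe.

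The ADP-ribosyltransferases of the list were lower together. Parp14 had -1.20, -1.88, -0.82 and -0.93 on injured arrays, against 0.82, 1.29, 0.73 and -0.06 on basal arrays, and fell by 1.90 ± 0.32 (adjusted p = 0.00117). Its neighbour on chromosome 16, Parp9, which works with the ubiquitin ligase Dtx3l, had -2.52, -2.47, -1.66 and -1.37 on injured arrays, against -1.22, 0.06, -0.68 and -1.35 on basal arrays. The injured and basal values of Parp14 were well apart, while those of Parp9 nearly touched, at injured 4 and basal 4. Parp9 fell by 1.21 ± 0.37 (adjusted p = 0.0216), and was not called against basal 3 and 4 alone (adjusted p = 0.0597) or without injured 1 or injured 2 (adjusted p = 0.0608 and 0.061). Parp12, which binds RNA, had -2.83, -3.22, -2.75 and -2.80 on injured arrays, against -1.95, -2.69, -0.74 and -2.24 on basal arrays. It was above background on no injured and 3 basal arrays and fell by 0.99 ± 0.37 (adjusted p = 0.0465). Leaving out any 1 injured array, basal 1 or basal 4 ended that call (adjusted p = 0.0518 to 0.111), which held in 9 of 22 alternatives.

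A pair of neighbours differed in opposite directions. Cmpk2, a mitochondrial nucleotide kinase, and Rsad2, or viperin, which makes a chain-terminating nucleotide from the product of Cmpk2, start 12763 bases apart on chromosome 12 of GRCm38.p6 and point away from each other. Cmpk2 had -0.54, -0.57, -1.04 and -0.63 on injured arrays, against 0.93, 1.12, 1.17 and 0.38 on basal arrays. Its groups did not overlap, and it fell by 1.59 ± 0.21 (adjusted p = 2.9e-04). The other Cmpk2 probe differed by -0.91 and was not called (adjusted p = 0.0578 in the fit of every probe). Rsad2 had -0.00, 0.35, 0.40 and 0.56 on injured arrays, against 0.12, -0.07, -0.33 and -0.79 on basal arrays. Its groups overlapped through injured 1 and basal 1, and it rose by 0.59 ± 0.22 (adjusted p = 0.0413). The call for Rsad2 was lost without injured 2, 3 or 4, or without basal 3 or 4, each left out alone (adjusted p = 0.0795 to 0.103), and held in 12 of 23 alternatives. The difference between the pair was not tested.

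The ubiquitin-like modifier Isg15, often among the most strongly induced of these genes, was not called. Its levels were 0.16, 0.18, 0.39 and 0.32 on injured arrays, against 0.46, 0.65, 0.24 and 0.33 on basal arrays. The difference was -0.16 ± 0.13, with a 95% interval of -0.46 to 0.15, and the groups overlapped. The other Isg15 probe was above background on 1 injured and 2 basal arrays and was not tested. Usp18, the protease that removes Isg15 from proteins and blocks Ifnar2 signalling, was above background nowhere. Bst2, or tetherin, which holds budding virus at the cell membrane, had -0.44, -0.12, -0.50 and -0.23 on injured arrays, against -0.37, -0.70, -1.38 and -0.43 on basal arrays. It differed by 0.40 ± 0.23, with a 95% interval of -0.13 to 0.92.

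Ifi35, a leucine zipper protein that partners with Nmi, had -1.11, -1.18, -1.25 and -0.61 on injured arrays, against -0.35, -0.75, -0.73 and -0.34 on basal arrays. The groups overlapped through injured 4, and Ifi35 fell by 0.49 ± 0.18 (adjusted p = 0.0437). It was not called against basal 3 and 4 alone (adjusted p = 0.0864), nor without injured 1, 2 or 3 or basal 1 or 4, each left out alone (adjusted p = 0.0893 to 0.114). The call held in 11 of 23 alternatives. Ifi44 was above background nowhere. In all, 13 members were not tested: 9 were above background on no array, with levels from -5.39 to -2.90, and 4 on single arrays. For Ifi27, a probe that the array names Ifi27l1 carries the accession of Ifi27 in the RefSeq table. That probe, found after values were seen and outside the list's rule, had 5.13, 5.15, 5.52 and 5.56 on injured arrays, against 7.23, 7.50, 7.43 and 7.36 on basal arrays. It differed by -2.04 (adjusted p = 2.0e-05 in the fit of every probe).

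**Figure D2:**
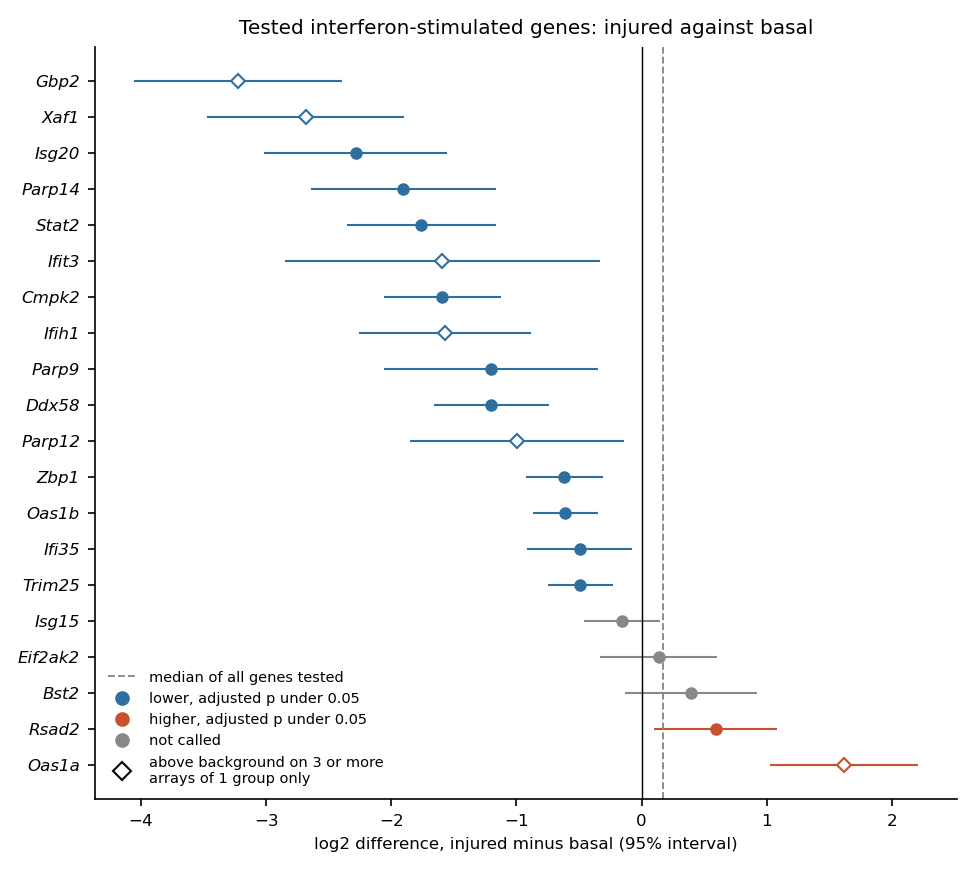
Log2 difference, injured minus basal, of each tested member with its 95% interval, coloured by call; open diamonds are members above background on 3 or more arrays of 1 group only. Among members read in both groups the differences run from -2.28 for Isg20 to 0.59 for Rsad2, the sizes of the open diamonds rest on dim values, and the dashed line at 0.17 is the median of all 13728 genes tested.

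Counted over 33 members, 14 to 17 were above background on each injured array and 18 to 21 on each basal array. The share of all non-control spots above background was 50.1% to 56.7%, with injured 1 highest. No spot was saturated.

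Interferons themselves were mostly below detection. Of 9 ligand genes with a probe, 6 were above background on no array, Ifnb1 (interferon beta) and Ifng (interferon gamma) among them. Of the 2 tested, Ifna1 and Ifnl3, neither was called by limma (at an unadjusted p under 0.05, 1 was lower and 0 higher); these ligands are named after their values were seen. Ifna1 had -2.93, -2.73, -3.19 and -4.14 on injured arrays, against -2.33, -2.65, -2.77 and -2.32 on basal arrays, and differed by -0.73 ± 0.30 (adjusted p = 0.0601). Ifnl3, an interferon lambda, differed by 0.21 ± 0.12 (adjusted p = 0.182). Absence of signal for a secreted ligand in these cells says nothing of other cells in the muscle.

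Of 10 tested genes of interferon receptors and signalling, 7 were lower and none higher in the limma fit (7 and 0 also at an unadjusted p under 0.05), and 3 were not called. Against basal 3 and 4 alone the count was 3 lower (Ifnar2, Jak1 and Stat3) and 1 higher (Tyk2, named after its values were seen), with a median of -0.71. Over all genes tested the shares were 24.7% lower and 35.4% higher, and 26.0% and 36.0% against basal 3 and 4 alone. The same shares are the background for the lists below. The receptor subunits differed among themselves. Ifnar2 had -0.25, -0.03, -0.05 and -0.18 on injured arrays, against 0.67, 1.41, 0.69 and 0.81 on basal arrays, and fell by 1.03 ± 0.18 (adjusted p = 0.00147). Its partner Ifnar1 had 0.95, 0.86, 0.84 and 1.01 on injured arrays, against 0.62, 1.16, 1.37 and 1.06 on basal arrays, and was not called (-0.14 ± 0.17, adjusted p = 0.508). Ifngr1 was above background on all basal and no injured arrays, so a difference was built into its selection. It fell by 0.79 ± 0.23 (adjusted p = 0.0153). It was not called against basal 3 and 4 alone (adjusted p = 0.0581). Ifngr2 was not called (-0.09 ± 0.15, adjusted p = 0.618). Whether the subunits of a pair differed from each other was not tested.

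The shared kinase Jak1 had 2.08, 2.09, 2.17 and 2.20 on injured arrays, against 3.08, 3.36, 3.75 and 2.73 on basal arrays, and fell by 1.09 ± 0.21 (adjusted p = 0.00207). Stat3, which serves many cytokines besides interferons, fell by 1.55 ± 0.20 (adjusted p = 2.7e-04). Neither gene's groups overlapped.

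The enzymes that attach Isg15 to proteins were lower, 3 of 3 tested, while Isg15 itself was not called. Ube2l6, the conjugating enzyme, had 0.77, 0.86, 0.97 and 1.10 on injured arrays, against 2.16, 2.58, 2.73 and 2.66 on basal arrays, and fell by 1.61 ± 0.16 (adjusted p = 7.6e-05). Uba7, the activating enzyme, read at least 1.80-fold lower (adjusted p = 1.1e-04). Herc6, the ligase in mice, read at least 2.50-fold lower (adjusted p = 0.00229). None of the 3 overlapped between groups. Uba7 and Herc6 were above background on all basal and no injured arrays, so a difference was built into their selection.

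Of 12 tested genes of nucleic acid sensing, 5 were lower, 1 higher and 6 not called (6 lower and 2 higher against basal 3 and 4 alone). All genes tested gave 24.7% lower and 35.4% higher (26.0% and 36.0% against basal 3 and 4 alone). The adaptor Myd88 read at least 3.64-fold lower, with an adjusted p of 5.7e-05. The kinase Ikbke read at least 2.67-fold lower, with an adjusted p of 0.00581. Both were above background on all basal and no injured arrays, so a difference was built into their selection. Ticam1, the adaptor of Tlr3, fell by 1.14 ± 0.19 (adjusted p = 9.6e-04), and Traf3, a ubiquitin ligase downstream of the sensors, rose by 0.97 ± 0.17 (adjusted p = 0.00124). Irf7, the transcription factor that amplifies interferon alpha production and is itself interferon-induced, had -0.28, -0.53, -0.29 and -0.18 on injured arrays, against -0.64, -0.30, -0.15 and -0.35 on basal arrays. It was not called (0.04 ± 0.14, adjusted p = 0.821).

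The brakes on signalling were split, 3 lower and 2 higher of 5 tested. Socs3, a feedback inhibitor of cytokine receptors, had 1.65, 1.59, 1.56 and 2.11 on injured arrays, against 6.06, 6.48, 6.18 and 4.92 on basal arrays. Socs3 fell by 4.18 ± 0.32 (adjusted p = 2.5e-05), and no injured value came near a basal one. Socs1, which blocks Jak kinases directly, read at least 1.70-fold lower, with an adjusted p of 0.0137. It reached the limit of detection in the basal group only, so a difference was built into its selection. Pias1, a SUMO ligase, fell by 1.45 ± 0.15 (adjusted p = 8.5e-05). The phosphatases Ptpn2 and Ptpn11 rose by 0.75 ± 0.23 (adjusted p = 0.0215) and 0.54 ± 0.14 (adjusted p = 0.00954). Against basal 3 and 4 alone Ptpn11 was not called (adjusted p = 0.0515), which left 1 brake higher.

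Among 27 tested genes of a second list of interferon-induced genes, 14 were lower, 4 higher and 9 not called, with a median of -0.64. All genes tested gave 24.7% lower and 35.4% higher. Cxcl10, a chemokine for activated T cells, had -3.19, -3.52, -2.08 and -2.33 on injured arrays, against 0.72, 1.63, 3.21 and 2.04 on basal arrays, and fell by 4.68 ± 0.53 (adjusted p = 1.5e-04). Irgm2, an immunity-related GTPase, read at least 3.38-fold lower, with an adjusted p of 8.8e-04. Cxcl10 and Irgm2 reached the limit of detection in the basal group only, so a difference was built into their selection. The same held for Ifitm1, Tgtp1, Gbp7 and Ifi203 among the lower genes, named after their values were seen. Lgals9, a galectin, fell by 2.44 ± 0.15 (adjusted p = 9.2e-06).

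The 4 that rose were Samhd1, Pnpt1, Ifi30 and Adar. Samhd1, which degrades the nucleotides used for DNA synthesis, had -0.35, -0.46, -0.78 and -0.59 on injured arrays, against -1.77, -2.06, -1.84 and -2.28 on basal arrays, and rose by 1.44 ± 0.16 (adjusted p = 1.3e-04). Pnpt1, a mitochondrial RNA exonuclease, rose by 0.99 ± 0.26 (adjusted p = 0.00943), and Ifi30, a lysosomal thiol reductase, by 0.94 ± 0.14 (adjusted p = 5.9e-04). Pnpt1 reached the limit of detection in the injured group only, so a difference was built into its selection. Adar, which edits double-stranded RNA and is named after its values were seen, rose by 0.92 ± 0.17 (adjusted p = 0.00187). Ifitm3, which blocks viral entry at endosomes, was not called (0.24 ± 0.20, adjusted p = 0.322). Against basal 3 and 4 alone it was called higher, by 0.55 ± 0.16 (adjusted p = 0.0231), and the list gave 12 lower and 5 higher.

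**Figure D3:**
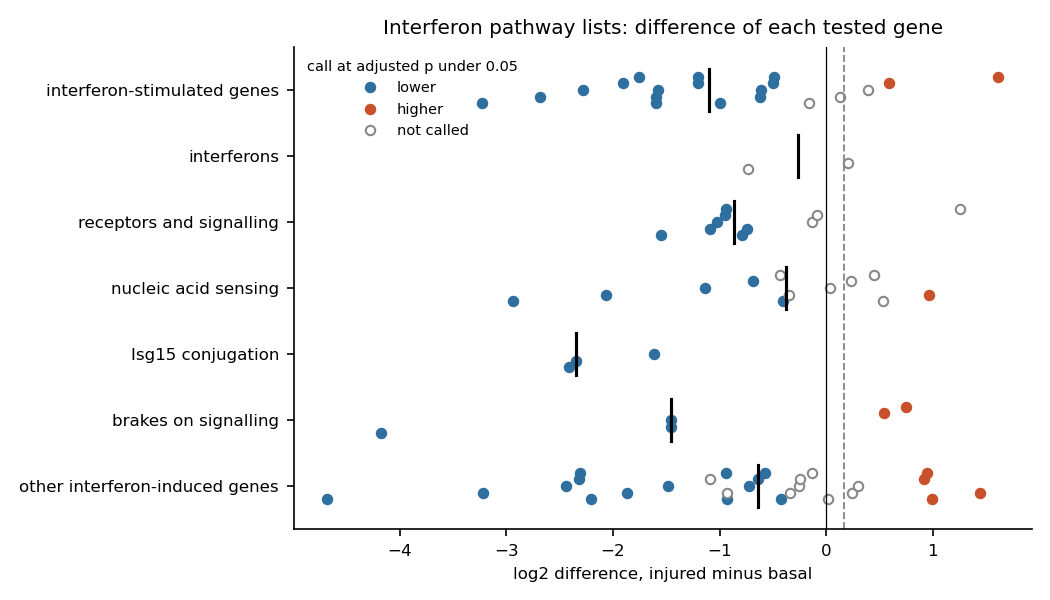
Log2 difference, injured minus basal, of each tested gene of the interferon-stimulated gene list and 6 further pathway lists, with each list's median as a black bar and the median of all genes tested, 0.17, as a dashed line. The medians run from -2.35 for Isg15 conjugation to -0.26 for the interferons, of which neither tested gene was called. The -2.35 is the value of Herc6, which was above background on basal arrays only.

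The basal arrays were not alike. Of 11 endothelial markers, 9 were higher on both basal 1 and basal 2 than on each of the other 6 arrays. Kdr and Tek were not: Tek had -1.21, -0.93, -1.24 and -0.44 on injured arrays, against 3.50, 3.13, 4.33 and 3.97 on basal arrays, and Kdr was called higher after injury. Pecam1, the CD31 used to remove endothelial cells, had -3.11, -2.06, -1.89 and -1.82 on injured arrays, against 3.20, 2.87, -2.20 and -3.22 on basal arrays. As the median over the 9 tested endothelial genes of the level minus each gene's mean over the 8 arrays, basal 1 and 2 stood at 2.51 and 2.10, basal 3 and 4 at -0.68 and -0.34. The same median over the 20 interferon-stimulated genes was 0.41, 0.38, 0.70 and 0.22 on basal arrays 1 to 4, so it was highest on basal 3. Over the 14 members read in both groups it was 0.23, 0.38, 0.47 and 0.22, also highest on basal 3. Against basal 3 and 4 alone, 12 of the 20 members were lower (with Ifit3, Ifi35 and Parp9 no longer called) and 2 higher, with a median of -1.13. Of the 14 members read in both groups, 8 were then lower and 1 higher, with a median of -0.68. Over all genes, 26.0% were lower and 36.0% higher in that comparison.

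Immediate early genes, which rise within minutes of stress and tissue dissociation, were lower too, 11 of 11, with a median difference of -4.04. Fos had 2.04, 2.39, 1.98 and 2.12 on injured arrays, against 5.21, 5.64, 5.93 and 4.96 on basal arrays. All 11 had their lowest basal value on basal 4. So did 8 of the 15 interferon-stimulated genes called lower (53.3%), against 25.2% of the 3391 genes called lower with no missing basal value. The part of this response in the result was not tested.

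**Figure D4:**
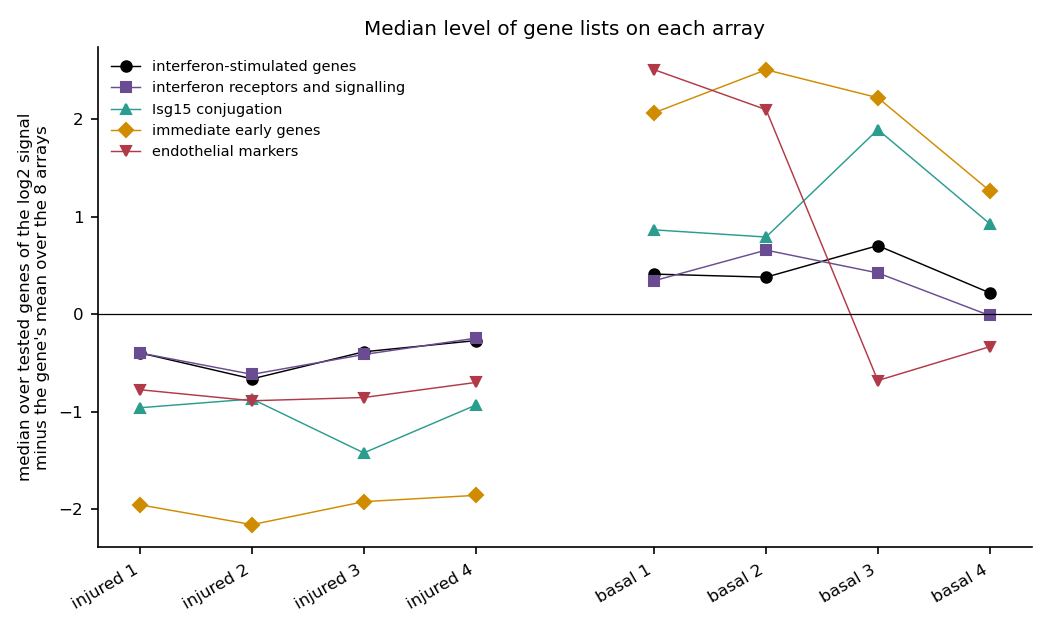
Median over the tested genes of each list of the level minus the gene's mean over the 8 arrays (log2), by array, injured left and basal right. The interferon-stimulated genes lie between -0.67 and -0.27 on injured arrays and between 0.22 and 0.70 on basal arrays; the immediate early genes are lowest among basal arrays on basal 4, and the median of the endothelial markers is high on basal 1 and 2 only.

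Markers of other cells moved in part with the groups. As a background, 24.7% of all genes tested were lower and 35.4% higher. Of 6 tested fibro-adipogenic markers, 5 were lower, and Pdgfra, which defines these cells, was above background on no array. Among the 5, Dcn, Col1a1 and Dpt reached the limit of detection in the basal group only, so a difference was built into their selection. The summed linear signal of the list, in units of the 75th percentile, was 7.39 to 10.6 on injured and 60.5 to 92.1 on basal arrays. Of 7 tested macrophage and monocyte markers, 1 was lower and none higher by limma, with 1 and 2 at an unadjusted p under 0.05 (summed signal 39.6 to 43.7 on injured and 47.9 to 91.1 on basal arrays). Csf1r and Ly6c1 carried most of that sum. Ly6c1 stood at 5.49 and 4.39 on basal 1 and 2, against 0.23 and 0.92 on basal 3 and 4 and 0.11 to 1.22 on injured arrays. Mrc1 and C1qc were above background on no array. Of 8 tested pericyte and smooth muscle markers 5 were lower and none higher by limma (5 and 0 at an unadjusted p under 0.05; summed signal 936 to 1071 on injured and 1218 to 1399 on basal arrays). That sum was mostly Mcam, at 9.88 on injured 1 and 10.3 on basal 1 in log2. Mcam was among the 5 lower, and its probe shared a 16-base run with 183 promoter windows. Rgs5 read at least 18.2-fold lower, Pdgfrb at least 3.78-fold lower, and Notch3 fell by 2.61. Rgs5 and Pdgfrb were above background on all basal and no injured arrays, so a difference was built into their selection. The 1 tested neutrophil marker, Csf3r, was lower, with a probe that shared a 16-base run with 22 promoter windows. S100a8 and S100a9 were above background on injured 1, basal 1 and basal 2, and Mpo on no array. Of 4 tested lymphocyte markers 1 was higher, and Cd3d, Cd8a and Ms4a1 were above background on no array. Of the satellite cell markers, 5 were lower and 2 higher of 9 tested, Pax7 was above background on all 8 arrays, and Myf5 was on none. Calcr, among the lower ones, was above background on all basal and no injured arrays, so a difference was built into its selection. The Myod1 probe, also above background on all arrays and called higher, shared a 16-base run with 102 promoter windows. The part of other cells in the result was not tested.

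All injured arrays shared a slide and all basal arrays another, so injury and slide cannot be told apart. On 3 injured arrays (2, 3 and 4) the female RNA Xist was high and no Y-linked gene checked was above background, against the male label. Xist levels were 1.72, 6.37, 6.55 and 6.57 on injured arrays, against 3.85, 2.15, -1.12 and -4.97 on basal arrays. Xist was above background on every array but basal 4. Injured 1 and all basal arrays had at least 1 Y-linked gene above background, so Xist and Y-linked signal stood together on injured 1 and basal 1, 2 and 3. The source of this signal was not tested. With injured 1 alone against the 4 basal arrays, the median difference of the tested members was -1.01. The spread between injured arrays cannot be measured from 1 array, so no calls are given for that comparison.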

How the data were processed

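Satellite cell RNA from 4 injured and 4 basal samples was read on 8 Agilent 1-colour arrays. The deposited scanner files hold background-subtracted spot intensity values. Per the file headers, the authors used Agilent Feature Extraction, version 10.7.3.1. The authors' deposited table holds log2 values (column medians 8.05 to 8.16); the submitters' processing notes name limma, and no source used here states the steps that made it. Its scale and centring were read from the values. Its columns correlated with their own arrays' scanner values at r = 0.571 to 0.952 over probes, and it was used as an alternative only.

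The log2 of each processed signal was taken relative to its array's 75th percentile. Outlier spots (1119) were dropped, and spots of a probe were averaged. Genes entered the test when the brightest probe passed the scanner's flag for signal well above background on 3 or more arrays of either group. The fit was limma 3.58.1 in R 4.3.3, two-sided, at a threshold of 0.05, with 6 residual degrees of freedom and a prior worth 2.55. An unadjusted p under 0.05 was found for 8855 genes. The fit was tested on simulated data.

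The members and gene lists were chosen with earlier results of these data known. All members could be named, and of other pathway lists up to 3 called genes per direction by size, with Irf9, Irf7, Ifnar1, Ifnar2, Ifngr1, Ifngr2, Ube2l6, Cxcl10 and Ifitm3 always. Where nothing says that samples came from separate animals, p-values measure the spread between these samples. Alternatives covered normalization, background correction, filters, probe choice, variance models, a replicate block and arrays left out. One gene of the signalling list is not reported here. A slide block was not run, since each slide holds 1 group.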

Additional observations from a re-analysis of the deposited data

Results flagged for a closer look

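On Isg20, basal 4 stood apart from the other basal arrays, at 1.13 against 2.45 to 2.67. Parp12 on injured 2 lay at -3.22, below the other injured arrays at -2.83 to -2.75, and none of these injured values was above background. Chance marks about 1 group in 20 by this measure of the gap over the range, and 42 groups were examined.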

How the results depend on the processing

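Over the alternatives, the count of members called lower ran from 2 to 15 and the median difference from -1.16 to 0.22. Leaving out 1 array at a time gave 11 to 15 lower, 1 to 2 higher and a median of -1.16 to -0.89, with -0.89 without basal 3. It gave 2998 to 3532 genes lower and 4229 to 4947 higher over all genes, and 35 to 41 calls over the pathway lists. The median was -0.43 with normexp and quantile normalization, -0.52 with normexp and the 75th percentile, -0.60 with no filter, -0.61 with genes above background on all arrays and -0.88 with the mean of all probes. Normexp and quantile normalization also moved the median of all genes to 0.06, from 0.17 as reported.

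The authors' deposited table departed furthest. There the median of all genes was 0.47, 765 genes were lower, the pathway lists gave 12 calls, and the members gave 2 lower (Isg20 and Ifih1), 1 higher (Eif2ak2, 1.56) and a median of 0.22. Signs turned for Ddx58 (0.25), Ifi35 (0.20), Ifit3 (0.34), Parp12 (0.63), Parp9 (0.31), Stat2 (0.51) and Zbp1 (0.47), none of them called. The cause was not tested. Genes above background on all arrays gave 9 lower and 1 higher members and 24 pathway calls, since fewer genes were tested.

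The count of members higher was 1 with median scaling, the authors' table, no filter, array weights, the replicate block, the mean over a gene's probes, and the restriction to genes read on every array. Under the replicate block, Ifit3 (adjusted p = 0.0577) and Rsad2 (0.097) lost their calls and no other member did. The deviations of same-numbered arrays correlated at r of -0.004 to 0.09 across genes, so the numbers were not taken as pairs. With injured 2, 3 and 4 left out, 3 members were lower and 0 higher, 1001 and 767 genes were lower and higher, and the pathway lists gave 10 calls, with 1 injured array remaining. Without basal 1 and 2, Eif2ak2 turned to -0.10, not called. With repeat-bearing probes left out, Trim25 turned to 0.14, not called. Signal near background limits Gbp2, Ifit3, Parp12, Xaf1, Ifih1 and Oas1a, and Stat2 on injured arrays.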
